A study of Rattus norvegicus with 14 samples.

Results

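Follistatin, the inhibin and activin subunits and an activin receptor were followed in the fetal rat gonad while it became a testis or an ovary. All probe sets with the platform symbol Fst, Inha, Inhba, Inhbb or Acvr2a were taken. These were 6 probe sets for 5 genes, with 2 probe sets for Fst, out of 15866 probe sets tested, whose single symbols named 10411 genes. Each probe set sums up several short probes to a transcript as an intensity on a linear scale. RNA was measured on 14 single-channel Affymetrix arrays, 1 per RNA pool, in 7 groups of 2 pools. The groups were fresh testis and fresh ovary, each at 3 ages (E13, E14 and E16, for the embryonic day), and testis collected at E13 and then cultured for 3 days. Each pool combined 20 to 40 gonads, and the 2 pools of a group were independent, so every SD and test below rests on 2 pools a group. The cultured testes lay on floating filters in a medium with insulin, transferrin and albumin. No label names an allele or a drug, and the strain is not given in the sources used here.

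Activins are dimers of beta subunits and belong to the TGF-beta family. Inhibins join one beta subunit to the alpha subunit and oppose activin at its receptors. Follistatin is a secreted protein that binds activin and keeps it from its receptors, and the type II receptors pass the signal through type I receptors to SMAD proteins. In the fetal ovary of the mouse, Fst is known to act downstream of Wnt4; ovaries that lack it form a testis-like vessel and lose germ cells. In the fetal testis, inhibin and activin subunits are made by Sertoli and Leydig cells.

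By both probe sets, Fst read lower in all fresh testis arrays than in all ovary arrays of the same age, and the difference passed at E16, where by the leading probe set the ovary mean was 7.85 times the testis mean. Inha, the alpha subunit, was higher in testis at E16, with a 4.42-fold higher mean, and it rose within the testis from E13 to E16 and in culture. Inhbb, Inhba and Acvr2a passed in none of the 14 comparisons. Over the 14 comparisons, 9 tests of these probe sets passed and 75 did not. Of all probe sets, 0.00% to 2.31% passed in a comparison. The 9 are not separate results, since Fst has 2 probe sets, the mean of ages includes E16, and the cultured comparisons share arrays. Passing means an adjusted p under 0.05 in limma, with differences on the log2(intensity + 16) scale and the Benjamini-Hochberg adjustment over all 15866 probe sets.

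**Figure D1:**
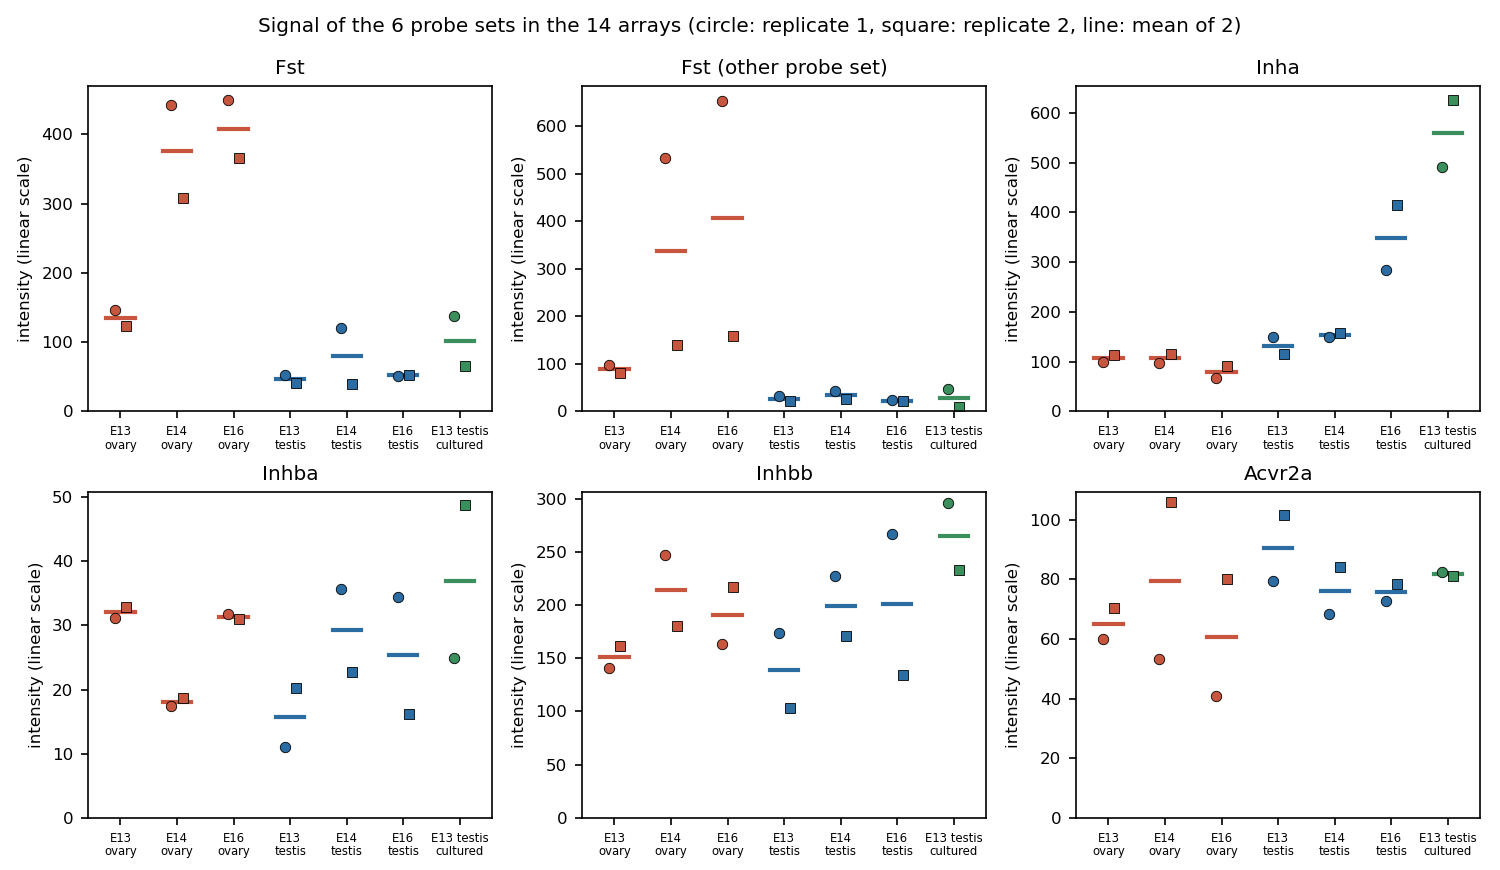
Intensity of each of the 6 probe sets in each of the 14 arrays, by group, with a circle for replicate 1 and a square for replicate 2 and a bar at the group mean. The Fst leading probe set spans 123.1 to 449.1 in the 6 ovary arrays and 39.5 to 120.2 in the 6 fresh testis arrays, and Inha is highest in cultured testis.

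Sry, the Y-linked testis-determining gene, read 162.8 and 184.9 in E13 testis and 13.1 to 28.7 in the ovary arrays. In E14 testis it read 45.9 and 37.1, and in E16 and cultured testis 13.4 to 28.2, inside the ovary range, so Sry did not tell the sexes apart there. Amh read 476.7 to 1092.8 in E14, E16 and cultured testis against at most 38.5 in ovary. Xist, the RNA made by the inactive X chromosome, departed from the labelled sex in 4 arrays: it read 36.2, 269.2 and 151.1 in replicate 1 of E13, E14 and cultured testis, and 12.8 in replicate 2 of E16 ovary. The other testis arrays read 1.5 to 4.8 and the other ovary arrays 151.7 to 672.3. Within 6 of the 7 groups the array with more Xist also read higher for the Fst leading probe set, in all 7 for the other Fst probe set, and in 1 of 7 for Inha. In all 7 groups that array was replicate 1, so Xist and replicate number cannot be told apart here. In every group but E13 ovary the 2 replicates also differed in chip period, read from the form of the chip labels. The part of any of these in the results was not tested. The actin 3′/5′ ratio, a sign of RNA integrity, was highest in replicate 1 of E16 ovary (3.34) and replicate 2 of cultured testis (2.97), and lay between 1.47 and 2.13 elsewhere. Array medians lay between 59.5 and 69.1. Results are given below with and without the 4 arrays; without them E13, E14 and cultured testis and E16 ovary have 1 array each, which is assumed to vary like the other groups. In pools of whole gonads, fewer cells of a type and less RNA per cell cannot be told apart.

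Inha (probe set 1387124_at) encodes the alpha subunit, the chain that makes a dimer an inhibin. In testis it read 148.8 and 114.7 at E13, 150.1 and 157.1 at E14, and 284.7 and 414.5 at E16. In ovary it read 99.9 and 113.9 at E13, 98.3 and 114.8 at E14, and 67.0 and 91.3 at E16. Both testis arrays stood above both ovary arrays at each age, as 3.42% of all probe sets did, but the ranges over the ages met, since the lowest testis array (114.7) lay just under the highest ovary array (114.8). In cultured E13 testis Inha read 491.6 and 626.3, above every other array. The order of the group means was cultured testis, E16 testis, E14 testis, E13 testis, E13 ovary, E14 ovary and E16 ovary. Among neighbours in that order, the arrays of E16 and E14 testis did not overlap, as for 34.8% of all probe sets, nor did those of cultured and E16 testis, as for 35.3%, but neither difference passed. Each other pair of neighbours differed by at most 0.37 on the log2 scale. Among those other pairs, only E13 and E14 ovary had arrays that overlapped. Not overlapping was common with 2 arrays a group, as for 46.2% of all probe sets between the sexes at E13.

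The promoters of the 3 subunit genes are shown because Inha passed in 5 comparisons and Inhba and Inhbb in none. Each sequence is the 250 bases before the annotated start, 5′ to 3′ on the gene's strand, from RefSeq on build GRCr8. Capitals mark matches to any of 5 motifs searched on both strands: the cAMP response element TGACGTCA, its variant TGCGTCA, the nuclear receptor half-site AGGTCA, and the GATA forms AGATAA and AGATAG.

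Inha, chr9:84442859-84443108, plus strand: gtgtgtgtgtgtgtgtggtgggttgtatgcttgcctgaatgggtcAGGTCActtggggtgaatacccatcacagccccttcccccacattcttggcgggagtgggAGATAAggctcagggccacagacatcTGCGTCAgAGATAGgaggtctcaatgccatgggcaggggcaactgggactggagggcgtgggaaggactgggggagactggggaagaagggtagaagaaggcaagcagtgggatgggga

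Inhba, chr17:53804509-53804758, minus strand: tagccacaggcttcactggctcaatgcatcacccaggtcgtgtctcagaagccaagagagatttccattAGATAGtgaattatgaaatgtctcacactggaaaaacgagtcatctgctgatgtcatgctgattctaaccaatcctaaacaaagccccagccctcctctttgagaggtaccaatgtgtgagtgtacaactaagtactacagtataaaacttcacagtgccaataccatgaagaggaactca

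Inhbb, chr13:33089374-33089623, minus strand: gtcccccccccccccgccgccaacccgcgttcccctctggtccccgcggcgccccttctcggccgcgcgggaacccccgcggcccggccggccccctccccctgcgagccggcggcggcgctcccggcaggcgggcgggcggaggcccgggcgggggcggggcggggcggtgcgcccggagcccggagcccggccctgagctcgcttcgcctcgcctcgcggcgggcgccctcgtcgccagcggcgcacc

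The Inha window held TGCGTCA at 119 bases before the start, AGATAG at 111, AGATAA at 145 and AGGTCA at 205, with no overlap between matches. Of 33469 promoter windows of this length, 1.66% held TGCGTCA, 7.73% AGATAG, 10.3% AGATAA, 14.1% AGGTCA and 1.59% TGACGTCA, which was in none of these 3 windows. The Inhba window held AGATAG at 181 bases before the start, and the Inhbb and Acvr2a windows held none of the 5. The Inhbb window was 86.8% G and C, against 58.4% for Inha, 43.6% for Inhba, 49.2% for Acvr2a and a median of 51.2% over all windows. A promoter entry was found for 4 of the 5 genes, and Fst had none in the table used. A match is a run of letters and not a binding site. The 5 motifs were a short hand-picked list, so the genes cannot be compared by their matches. Any link between the matches and the signals was not tested.

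Between the sexes, the mean of Inha at E16 was 349.6 ± 91.8 in testis and 79.2 ± 17.2 in ovary (SD, n = 2 each). The difference was 1.93 on the log2 scale (SE 0.23, adjusted p = 0.00253 by limma). At E16, 3 of the 6 probe sets passed, against 1.74% of all probe sets, of which 1.01% were higher in testis and 0.725% lower. At E13 the Inha difference was 0.26 (adjusted p = 0.779) and at E14 0.47 (adjusted p = 0.652); none of the 6 passed at either age, where 0.0126% and 0.139% of all probe sets did. The mean of the 3 ages gave 0.89 (SE 0.13, adjusted p = 0.00646). In that comparison 3 of the 6 probe sets passed, against 2.31% of all, of which 1.28% were higher in testis and 1.03% lower. The sex difference at E16 exceeded that at E13 by 1.67 (SE 0.32, adjusted p = 0.0994), which missed the threshold; no member passed, against 0.145% of all probe sets. With the chip period as a block it was 1.83 (adjusted p = 0.0481) and with the chip set as a random block 1.68 (adjusted p = 0.0301), and both passed. Without the 4 arrays whose Xist departed from the label, the E16 difference was 2.12 (adjusted p = 0.0638) and the mean of ages 0.90 (adjusted p = 0.0821), so neither passed. In the single pair of E16 arrays of one chip set, a set of arrays read from the form of the chip labels, the Inha difference was 2.0. The ovary array of that pair, replicate 2, is among the 4 arrays.

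Within the testis, Inha rose from 131.8 ± 24.1 at E13 to 349.6 ± 91.8 at E16, by 1.29 on the log2 scale (SE 0.23, adjusted p = 0.0235). It was the only one of the 6 probe sets to pass in that comparison, against 0.945% of all. The step from E14 to E16 was 1.09 (adjusted p = 0.217) and that from E13 to E14 0.21 (adjusted p = 0.95). No member passed in either step, where 0.120% and 0.0693% of all probe sets did. The rise over the whole span did not pass without E13 testis replicate 1, E13 testis replicate 2 or E16 testis replicate 2 (adjusted p up to 0.223), nor without the 4 arrays (1.46, adjusted p = 0.131). In ovary the change from E13 to E16 was -0.38 (95% interval -0.88 to 0.12, adjusted p = 0.634).

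In culture, Inha reached 559 ± 95.2 (SD, n = 2), above fresh E13 testis by 1.96 (SE 0.23, adjusted p = 0.0019) and above fresh E14 testis by 1.75 (SE 0.23, adjusted p = 0.00762). In each of these comparisons it was 1 passing probe set of 6, against 1.39% and 0.277% of all probe sets. Against fresh E16 testis the difference was 0.67 (95% interval 0.17 to 1.16, adjusted p = 0.594), and 0.0945% of all probe sets passed. The comparison with E13 gave 2.30 without the 4 arrays (adjusted p = 0.079) and passed with each array left out in turn. The comparison with E14 did not pass without the 4 arrays (1.89, adjusted p = 0.184), without the 2 arrays of high actin ratio (1.58, adjusted p = 0.105), or without cultured replicate 2, E14 testis replicate 1 or E14 testis replicate 2 (adjusted p up to 0.104). The 3 cultured comparisons share the same cultured arrays. Inside single chip sets or periods, Inha in culture was higher by 2.30 than E13, 1.61 and 1.89 than E14, and 0.58 and 0.76 than E16. Of these, 1.61 and 0.76 rest on cultured replicate 1, and 1.61 also on E14 testis replicate 1, both among the 4 arrays.

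Markers of the steroid-making and supporting cells were read beside Inha. The 8 fetal Leydig cell genes, all measured, summed to 5031 and 9411 in E16 testis and 4884 and 6047 in cultured testis, and to 353.9 to 520 in the other 10 arrays; all 8 passed as higher in testis at E16, 7 of 8 rose in testis from E13 to E16 and 5 of 8 were higher in culture than at E13. In these 3 comparisons 1.74%, 0.945% and 1.39% of all probe sets passed. The Sertoli cell list, with 14 of 18 genes measured, summed to 2064 and 2323 in E13 testis, 3436 and 3702 in E14 testis, 4669 and 4834 in E16 testis, 4447 and 5061 in cultured testis, and 2144 to 2798 in ovary. Of its 14 genes, 5 passed as higher and 1 as lower in testis at E16, 5 rose in testis from E13 to E16, and 6 were higher in culture than at E13. Its defining genes Sox9 and Dhh are not analysed here, and none of the measured genes of either list was at 0. The adrenal cortex genes, 3 of 5 measured, summed to 433.5 and 667 in cultured testis and at most 104.1 elsewhere, and 2 of the 3 passed as higher in culture than at E13. Inha was highest in the 4 arrays that had both the highest Leydig and the highest Sertoli sums, and the part of these cells in the result was not tested.

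**Figure D2:**
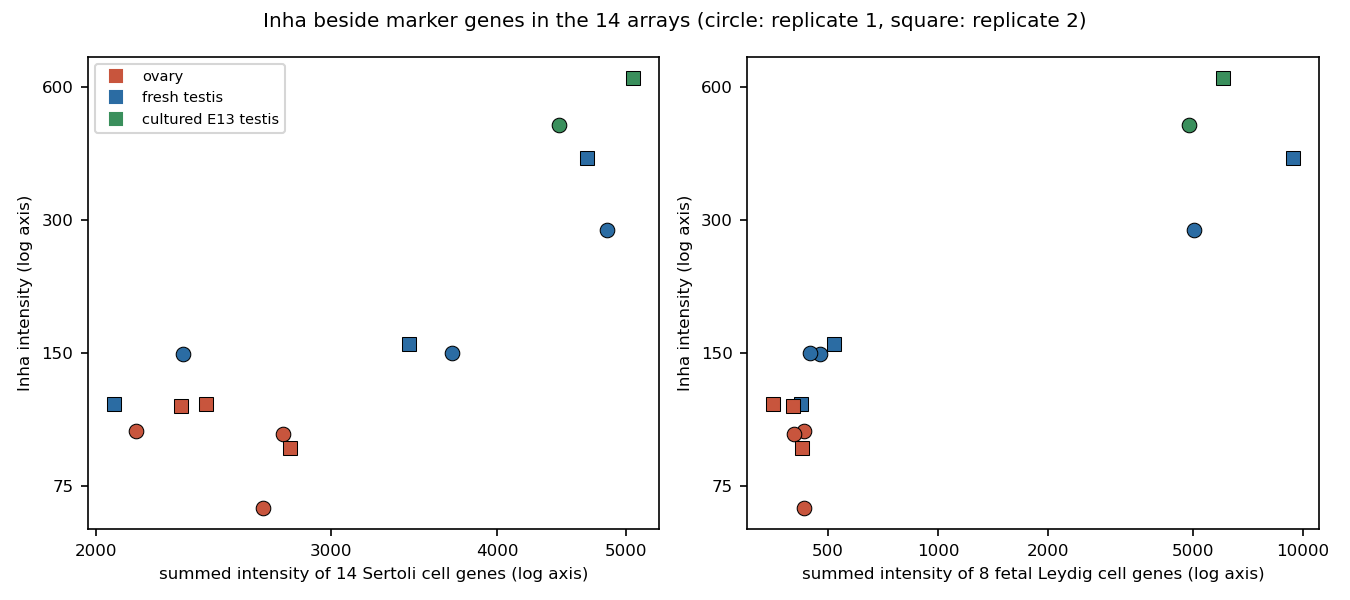
Inha intensity against the summed intensity of 14 Sertoli cell genes (left) and of 8 fetal Leydig cell genes (right) in the 14 arrays, on log axes, coloured by tissue, with a circle for replicate 1 and a square for replicate 2. The 2 E16 testis and 2 cultured arrays read 284.7 to 626.3 for Inha, 4447 to 5061 for the Sertoli sum and 4884 to 9411 for the Leydig sum, above all other arrays on each of the 3 measures.

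Inhba (1369012_at) and Inhbb (1377163_at) encode the beta A and beta B subunits, shared by activins and inhibins. Inhba read below the median of its array in all 14 arrays, from 11.1 in E13 testis replicate 1 to 48.8 in cultured testis replicate 2. In testis it read 11.1 and 20.3 at E13, 35.6 and 22.8 at E14 and 34.4 and 16.2 at E16, and in ovary 31.2 and 32.9, 17.5 and 18.7, and 31.7 and 31.0. The sexes stood apart at E13, with testis lower, and at E14, with testis higher, and overlapped at E16. Not overlapping with 2 arrays a group was common: 46.2% of all probe sets stood apart between the sexes at E13, 34.6% at E14 and 41.8% at E16. The differences between testis and ovary were -0.62 (95% interval -1.21 to -0.02) at E13, 0.39 (-0.21 to 0.99) at E14 and -0.23 (-0.83 to 0.36) at E16, with adjusted p = 0.632, 0.785 and 0.792 by limma. Cultured testis read 24.9 and 48.8, higher than fresh E13 testis by 0.71 (adjusted p = 0.303).

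Inhbb read above the median of its array in all 14 arrays. In testis it read 174.0 and 103.5 at E13, 227.3 and 171.3 at E14 and 267.1 and 134.1 at E16. In ovary it read 140.8 and 161.6, 247.3 and 180.7, and 163.7 and 217.1. The testis and ovary arrays overlapped at each of the 3 ages, and the differences were -0.15, -0.09 and 0.01, with a 95% interval of -0.70 to 0.72 at E16. Cultured testis read 296.1 and 233.1, both above both fresh E13 testis arrays, as 39.5% of all probe sets stood apart there; the difference was 0.89 (95% interval 0.18 to 1.60, adjusted p = 0.271). The 7 group means differed by at most 0.89 on the log2 scale, against a within-group SD of 0.37, so the order of the groups for Inhbb is not resolved beyond the spread between arrays. The same holds for Inhba, with a range of group means of 0.71 and a within-group SD of 0.29.

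Fst, the activin-binding protein, was measured by 2 probe sets. The leading one, with the higher mean over all arrays, is 1372750_at, against AI102517, and the other is 1387843_at, against NM_012561. In ovary the leading probe set read 146.3 and 123.1 at E13, 442.3 and 308.6 at E14, and 449.1 and 366.0 at E16. In testis it read 53.0 and 40.8 at E13, 120.2 and 39.5 at E14, 51.7 and 52.1 at E16, and 137.7 and 66.1 after culture. All 6 fresh testis arrays lay below all 6 ovary arrays, though the highest testis array (120.2) came close to the lowest ovary array (123.1). The other probe set read 97.2 and 79.8, 532.7 and 140.6, and 652.5 and 159.5 in ovary at E13, E14 and E16. In testis it read 32.0 and 22.0, 43.0 and 25.6, and 24.1 and 21.0 at these ages, and 48.0 and 9.4 after culture. Here too the 6 fresh testis arrays lay below the 6 ovary arrays, as was so for 0.863% of all probe sets (137 of 15866). By both probe sets the order of the means began with E16, E14 and E13 ovary, and the testis groups followed. Between neighbours in the leading probe set's order the step from E14 to E13 ovary was 1.36, and no other step was over 0.42 on the log2 scale.

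At E16 the leading probe set read 51.9 ± 0.283 in testis and 407.6 ± 58.8 in ovary, a difference of -2.63 (SE 0.39, adjusted p = 0.00672 by limma). The other probe set read 22.6 ± 2.19 and 406 ± 348.6, a difference of -3.15 (SE 0.66, adjusted p = 0.0394). At E14 the differences were -2.15 (adjusted p = 0.0808) and -2.56 (adjusted p = 0.25), and at E13 -1.26 (adjusted p = 0.497) and -1.29 (adjusted p = 0.671). The mean of the ages gave -2.02 (SE 0.23, adjusted p = 0.00132) for the leading and -2.33 (SE 0.38, adjusted p = 0.00932) for the other. The sex difference at E16 was not resolved from that at E13 (-1.37, adjusted p = 0.676 for the leading probe set).

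The mean of ages for the leading Fst probe set passed in all 25 alternatives, among them without the 4 arrays (-2.33, adjusted p = 0.0118); for the other probe set it did not pass without them (-2.80, adjusted p = 0.0546). At E16 the leading probe set did not pass without E16 testis replicate 1 (adjusted p = 0.0522) or replicate 2 (adjusted p = 0.0709) and passed without the 4 arrays (-2.78, adjusted p = 0.0328). The other probe set at E16 did not pass without the 4 arrays (-4.12, adjusted p = 0.0927), without the 2 arrays of high actin ratio (-2.19, adjusted p = 0.153), without either array of E13 testis, E14 testis, E16 testis or E13 ovary, or without E16 ovary replicate 1. At E14 the leading probe set passed without E14 testis replicate 1, the testis array with the most Xist (-2.80, adjusted p = 0.0137). It also passed at E14 with the chip period as a block (-2.34, adjusted p = 0.022), with the chip set as a random block (-2.25, adjusted p = 0.0121) and with the filter on low values (adjusted p = 0.0269). Inside the 1 chip set with both sexes at an age, a different set for each age, the leading difference was -2.55 at E14 and -2.49 at E16, and inside 1 chip period it was -1.12 at E13. The E16 ovary array and the only E13 testis array used there are among the 4 arrays, and neither E14 array is.

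The 2 Fst probe sets moved together over the 14 arrays (Pearson r = 0.92, Spearman rho = 0.89, a description over 7 groups of 2) but disagreed between arrays of the same ovary group. At E14 and E16 the other probe set read 3.79 and 4.09 times as high in replicate 1 of ovary as in replicate 2, against 1.43 and 1.23 times for the leading one. The ratio of the other to the leading probe set was 1.20 and 1.45 in those replicate 1 arrays and 0.142 to 0.664 in the other 12 arrays. The 2 high arrays shared a chip set, whose part in this was not tested, and E16 ovary replicate 1 also had the highest actin ratio.

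**Figure D3:**
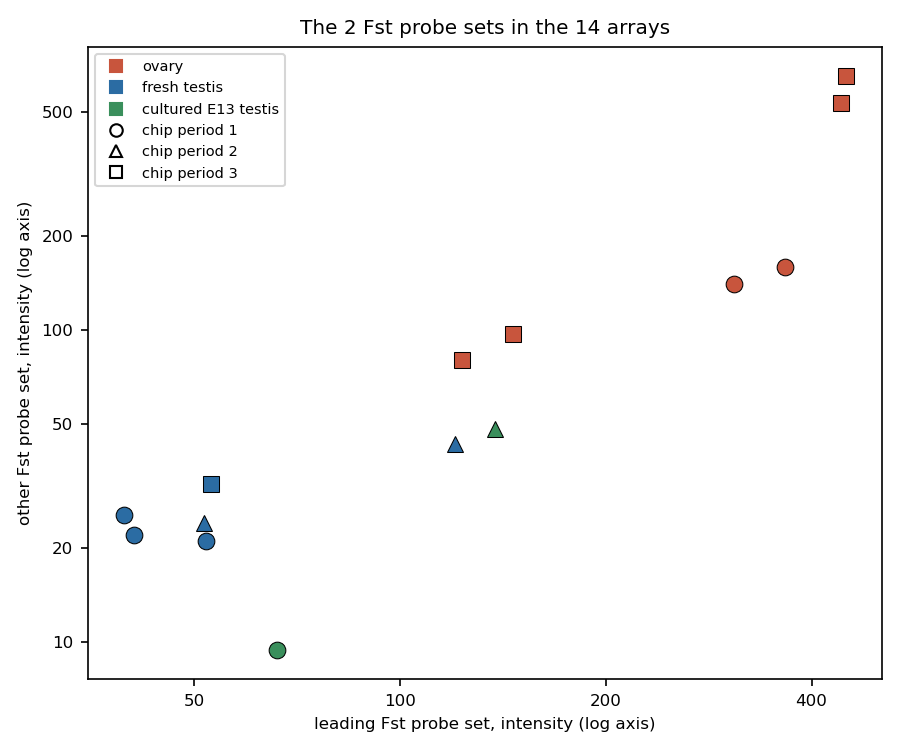
Intensity of the other Fst probe set against the leading one in the 14 arrays, on log axes, coloured by tissue and shaped by chip period. The replicate 1 arrays of E14 and E16 ovary, at 532.7 and 652.5 on the vertical axis, stand above the replicate 2 arrays of these groups, at 140.6 and 159.5.

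Within the ovary, the leading Fst probe set was higher at E16 than at E13 by 1.49 (95% interval 0.63 to 2.35, adjusted p = 0.125) and higher at E14 than at E13 by 1.36 (adjusted p = 0.719). Without the 4 arrays, the first of these was 1.63 (adjusted p = 0.191). With the chip period as a block, E16 passed as higher than E13 for both Fst probe sets (1.67, adjusted p = 0.0286, and 2.40, adjusted p = 0.0289), and inside chip period 3 the differences were 1.63 and 2.68. Both E14 and both E16 arrays lay above both E13 arrays, as 15.3% of all probe sets were higher in that way from E13 to E14 and 19.1% from E13 to E16. Without the block no member passed in these comparisons, where 0.00% of all probe sets passed from E13 to E14 (679 had an unadjusted p under 0.05 by limma) and 0.889% from E13 to E16. From E14 to E16 the difference was 0.13, and again 0.00% of all probe sets passed (975 at an unadjusted p under 0.05). Within the testis, E16 and E13 differed by 0.12 (95% interval -0.74 to 0.97). Cultured testis was higher than fresh E13 testis by 0.84 for the leading probe set (adjusted p = 0.413) and differed by -0.08 for the other.

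Markers named for the supporting cells of the ovary were read beside Fst. The pre-granulosa list, with 8 of 12 genes measured, summed to 1096 to 1204 in E13 ovary, 1070 to 1491 in E14 ovary and 839.9 to 1236 in E16 ovary. It summed to 751.2 to 932.2, 541.4 to 754.1 and 444.9 to 585.5 in testis at these ages and 433.5 to 710.9 after culture. Of its 8 genes 1 passed as lower in testis at E16, against 0.725% of all probe sets. In the mean of the ages 3 did, against 1.03% of all, and none of the 8 was at 0. Its defining gene Foxl2 is not analysed here, and the part of these cells in the Fst result was not tested.

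Acvr2a (1381220_at) encodes a type II receptor that binds activin. It read 79.3 and 101.6, 68.4 and 84.0, and 72.8 and 78.6 in testis at E13, E14 and E16, and 82.6 and 81.2 after culture. In ovary it read 60.1 and 70.3, 53.2 and 105.9, and 41.0 and 80.3. The sexes overlapped at E14 and E16, and at E13 both testis arrays stood above both ovary arrays. At E13, 46.2% of all probe sets stood apart in either direction. The differences were 0.39 (95% interval -0.25 to 1.02), 0.00 (-0.64 to 0.64) and 0.31 (-0.33 to 0.94), and none passed. The 7 group means spanned 0.51 on the log2 scale, against a within-group SD of 0.32, so the groups have no resolved order for Acvr2a.

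**Figure D4:**
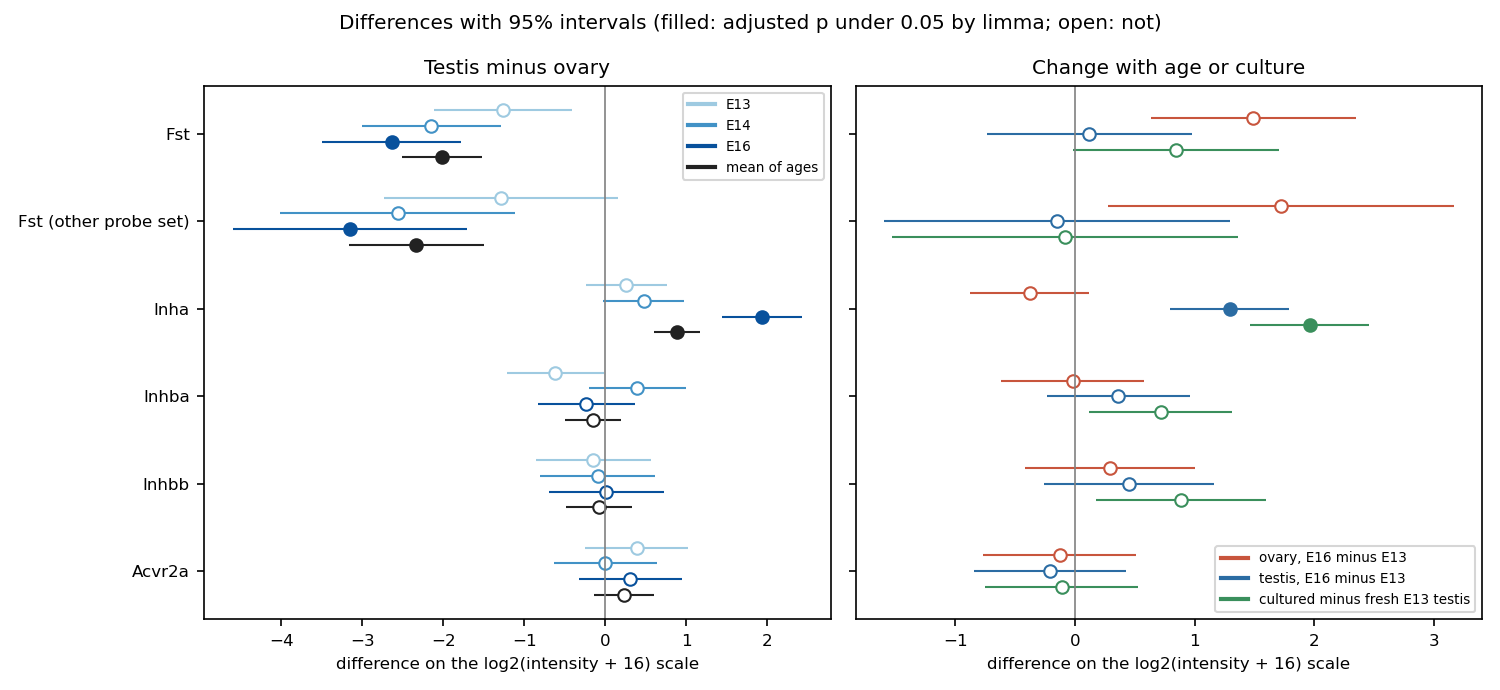
Differences of the 6 probe sets on the log2(intensity + 16) scale with 95% intervals, between testis and ovary (left) and with age or culture (right). Filled points passed in limma: Fst by both probe sets and Inha at E16 and in the mean of ages, and Inha in testis with age and in culture.

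Of 32 other genes of the activin pathway, 26 were measured: subunits and related ligands, binding proteins, receptors, SMADs, and enzymes that process the ligands. In testis against ovary at E16, 0.725% of all probe sets passed as lower and 1.01% as higher. Of the 26 genes, 1 was lower and none higher, with a list median of 0.15 against 0.05 for all probe sets. That gene was Fstl3, a follistatin-like activin-binding protein. It read 5.4 and 4.3 in E16 testis and 43.1 and 40.7 in E16 ovary, and 9.6 and 4.2 in E14 testis against 41.3 and 37.7 in E14 ovary. At E13 it read 11.7 and 5.5 in testis and 20.6 and 4.1 in ovary, and it read below the array median in all 14 arrays. The sexes stood apart at E14 and E16, as for 34.6% and 41.8% of all probe sets in either direction, and overlapped at E13. The E16 difference was -1.47 (SE 0.26, adjusted p = 0.0156 by limma) and the mean of the ages -0.97 (SE 0.15, adjusted p = 0.00776); E14 did not pass (-1.29, adjusted p = 0.121). The E16 call of Fstl3 was lost without any 1 of the 4 E16 arrays, both calls were lost without the 4 arrays of departing Xist, and the mean of ages also with the chip period as a block. The E16 call was also lost with an offset of 1 (adjusted p = 0.0636 by limma), with only the groups compared (adjusted p = 0.0826) and without the 2 arrays of high actin ratio. It passed in 16 of the 24 alternatives that kept Fstl3, and the mean of ages in 22.

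Between cultured and fresh E13 testis 1.39% of all probe sets passed. Bambi, a decoy receptor of the family, was the only pathway gene of the 26 to pass with culture. It read 188.5 and 226.1 in cultured testis and 455.4 and 568.4 in fresh E13 testis. It was lower in culture with a difference of -1.24 (SE 0.23, adjusted p = 0.0293); the call held in 6 of 14 repeats with 1 array left out, and was lost without either array of cultured, E13 or E14 testis or of E13 ovary. It was also lost without the 4 arrays of departing Xist (-1.27, adjusted p = 0.19), without the 2 arrays of high actin ratio (-1.36, adjusted p = 0.0793), with only the groups compared and with an offset of 1, so that Bambi passed in 13 of 25 alternatives. Among the repeats with 1 array left out, only those without an array of cultured or E13 testis could change the Bambi difference itself. The 6 in which the call held left out arrays of E16 testis, E14 ovary or E16 ovary, which are not compared here. Fresh E16 testis read 259.4 and 248.6, and its difference from E13 did not pass (-0.96, adjusted p = 0.0948). None of the 26 passed in the other 11 comparisons, where 0.00% to 0.945% of all probe sets did. The type II receptor Acvr2b read 61.2 to 244.4, and the leading probe sets of the transducers Smad2, Smad3 and Smad4 read above the array median in all 14 arrays. A second Smad3 probe set read 21.3 to 52.5, below it in all 14. Pcsk6, a convertase that cleaves precursors of the family, read higher at E16 than at E13 in testis by 0.89 (adjusted p = 0.086) and in ovary by 0.88 (adjusted p = 0.0868).

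**Figure D5:**
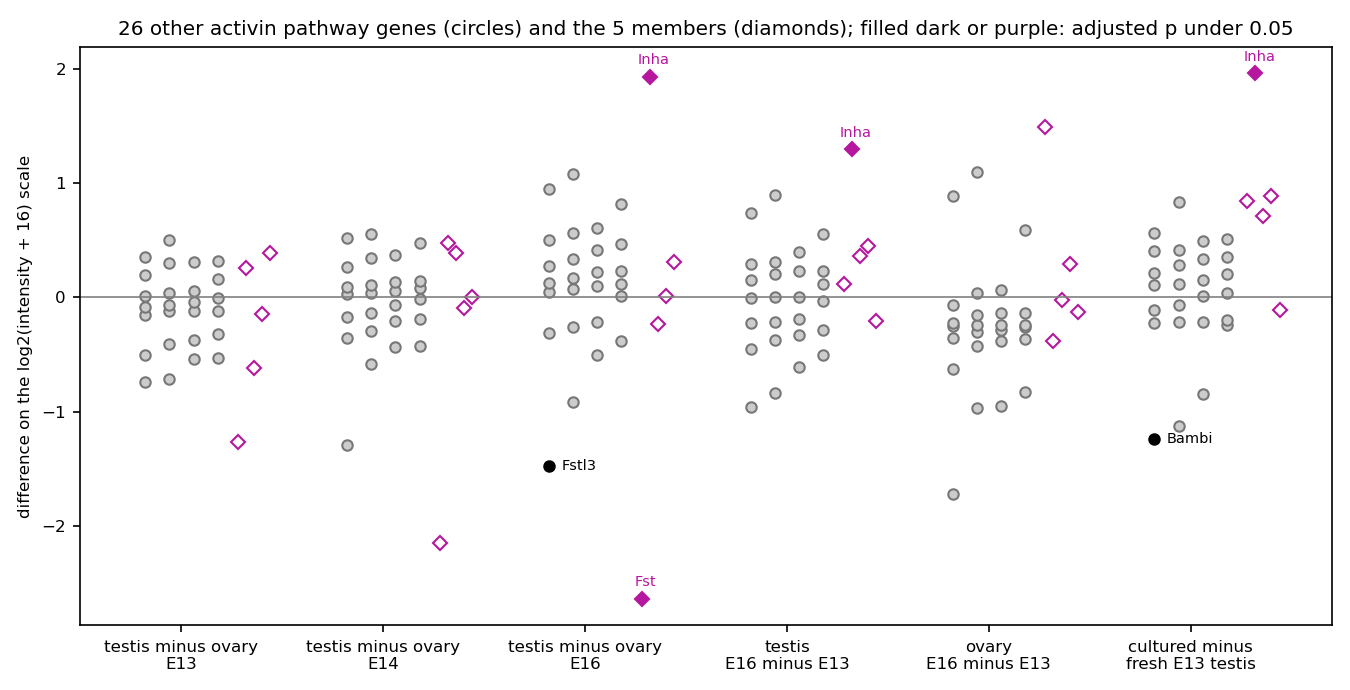
Differences on the log2(intensity + 16) scale in 6 comparisons for the 26 other activin pathway genes (circles) and the leading probe sets of the 5 members (diamonds); black circles and filled diamonds passed in limma. At E16, Fstl3 at -1.47 and Fst at -2.63 lie on the ovary side and Inha at 1.93 on the testis side.

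For each leading probe set, the 3 probe sets most like it were found among those of 1 symbol at or above the median level, by Pearson r over the 14 arrays. For Fst these were Sema6d (r = 0.94), Eci2 (0.92) and its own other probe set (0.92). For Inha they were Hsd3b1 (0.96), Msmo1 (0.96) and Trim47 (0.94). With the group means removed, r was 0.66 for Sema6d with Fst, and with Inha it was 0.25 for Hsd3b1, 0.70 for Msmo1 and 0.27 for Trim47. Acvr2a was most like Pdcl (0.93), Eif3m (0.93) and Bzw1 (0.92), and without the group means r was 0.99, 0.99 and 0.95. The likest for Inhba were Scamp4, Tnni2 and Zhx1 (0.75, 0.74 and 0.74) and for Inhbb Nsg2, Tpst1 and Dlg5 (0.80, 0.80 and 0.76); without the group means these were 0.79, 0.74 and 0.65, and 0.59, 0.80 and 0.61.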

How the data were processed

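RNA of 14 pools of rat fetal gonads was measured on 14 arrays. Deposited were linear intensities, 1 per probe set and array; which software made them is not given in the sources used here. Arrays had been scaled to one level before deposit, as the numbers show: the mean after trimming 2% of probe sets at each end was 125.026 to 125.034 on all arrays. The number of arrays limits the precision.

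Groups came from the labels. Of 15923 probe sets, 57 controls were left out. Gene names came from the platform annotation (12783 tested probe sets with 1 symbol, 312 with several, 2771 with none), and probe sets without exactly 1 symbol stayed unnamed. Values were taken as log2(intensity + 16), which understates the change of dim genes, and limma 3.58.1 (R 4.3.3) was run over the 14 arrays with the 7 groups as terms (lmFit and eBayes, 7 residual and 4.16 prior degrees of freedom). Each of 14 comparisons was adjusted by Benjamini-Hochberg over 15866 probe sets. A gene with several probe sets was led by the one with the highest mean. The script was tested on simulated data.

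The members and gene lists were chosen with earlier results of these data known. All probe sets of the 5 genes are named; of the pathway list, genes that passed are named, with Acvr2b, Smad2, Smad3, Smad4 and Pcsk6 picked after their values were seen. Chip sets (8) and chip periods (3) were read from the form of the chip labels and are not known to be hybridisation batches. The 25 alternatives were the offset, quantile normalization, a filter, the arrays in the fit, blocks, array weights, and arrays left out. Promoter sequences came from RefSeq on build GRCr8.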

Additional observations from a re-analysis of the deposited data

Results flagged for a closer look

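The sex difference of Inha, the inhibin alpha subunit, was set apart because its testis and ovary arrays moved opposite ways with age. It was larger at E16 than at E13 by 1.67 on the log2 scale (SE 0.32, adjusted p = 0.0994 by limma) and larger at E16 than at E14 by 1.46 (adjusted p = 0.39). Every testis array of Inha was higher at E16 than both arrays of the younger age, and every ovary array was lower. The share of all probe sets that moved opposite ways like this was not counted. In testis, 34.8% of all probe sets stood apart between E14 and E16 in either direction. Neither test of the difference passed in the fit without blocks; the change from E13 to E16 passed when the chip set was a random block (1.68, adjusted p = 0.0301) or the chip period a fixed one (1.83, adjusted p = 0.0481).

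For Inhba, the sex difference at E14 minus that at E13 was 1.01 (unadjusted p = 0.0237, adjusted p = 1 by limma). Both testis arrays read below both ovary arrays at E13 and above them at E14. In either direction, 46.2% of all probe sets stood apart between the sexes at E13 and 34.6% at E14. The share that turned over between these ages was not counted. No probe set passed for the sex difference at E14 minus that at E13 over all 15866, and Inhba read below the array median in every array. The comparisons of E14 with E13 and of E16 with E14 were added after seeing the data.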

How the results depend on the processing

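For the 9 member tests that passed, all 225 repeats (25 alternatives each) kept the sign and 191 passed. Many of these repeats could not change the sign, so the sign count is no test of direction. Leaving out an array of a group not compared, the replicate block and array weights left the difference itself unchanged. At E14, where no member passed between the sexes, 1, the leading Fst probe set, did with the filter on low values, with the chip period as a block, with the chip set as a random block and with the replicate block. At E16, 3 passed as reported and 1 with only the arrays of the groups compared or without the 4 arrays of departing Xist; in the mean of ages, 3 became 1 without those 4 arrays. The change of the sex difference from E13 to E16 went from 0 to 1 (Inha) with either chip block. The testis comparison of E16 with E13 went from 1 to 0 with offset 1, with only the groups compared and without the 4 arrays. The ovary comparison of E16 with E13 went from 0 to 2 with the chip period block (both Fst probe sets) and to 1 with the replicate block (the leading one). Cultured against E13 testis went from 1 to 0 with only the groups compared and without the 4 arrays, and cultured against E14 testis from 1 to 0 in these and without the 2 arrays of high actin ratio. With 1 array left out, the count ranged from 0 to 1 between the sexes at E14, from 1 to 3 at E16, from 0 to 1 for testis E16 with E13 and for cultured with E14, and stayed at 3 for the mean of ages and 1 for cultured with E13. With only the groups compared, 11 of all probe sets passed between the sexes at E16, against 276 as reported. In testis from E13 to E16 it was 29 against 150, and for cultured with E13 29 against 221. Without the 4 arrays, fewer of all probe sets passed too in each comparison where the member count fell. With the chip period block more did, as 35 against 22 at E14 and 202 against 141 in ovary from E13 to E16. The fit on only the groups compared holds fewer arrays, and the cause of the other changes was not tested. Deviations of the replicate 1 arrays from their group means correlated over 0.1 in 15 of 21 pairs of groups (median 0.17, range -0.05 to 0.53). Same-numbered arrays thus tended to deviate together. The main fit left this out, and the replicate block was 1 of the 25 alternatives. With that block, 398 of all probe sets passed between the sexes at E16 against 276 as reported. In the mean of ages 673 passed against 366. Of the 75 tests that did not pass, 35 changed sign under some alternative. Dim signals limit Inhba, Fstl3 and the testis side of Fst. In E16 testis the leading Fst probe set read 51.7 and 52.1, under array medians of 69.1 and 65.7.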

Other observations

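Beside the lists read with Inha and Fst, the summed intensity of the other marker lists was as follows over the 14 arrays. The germ cell list had 2 of 10 genes measured (Kit and Sycp3) and summed to 44.6 to 234.7. The mesonephros and kidney list (6 of 8) summed to 119.7 to 569.1, the macrophage list (7 of 7) to 262 to 546.5, the endothelium list (4 of 6) to 221.3 to 531, and the neuron list (6 of 6) to 220.2 to 545.1. The red blood cell list (3 of 6) varied most, from 197.6 in E13 testis replicate 1 to 7488 in E16 testis replicate 2. Within cultured testis it was 2654 in replicate 1 and 222 in replicate 2, where the leading Fst probe set read 137.7 and 66.1 and Inha 491.6 and 626.3.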
